A study of Mus musculus with 12 samples.

Results

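Mc1r, Kit, Ednrb and Met encode receptors on the surface of melanocytes and melanoma cells, and Kitl encodes the ligand of KIT. These 5 genes were named as receptors and ligand, with earlier results of these data known, from the 55487 genes of the count table, and no threshold on a measured value was used. The samples were B16F10 cells, a mouse melanoma line labelled as wild type, grown for 24 h in medium taken from cultured bone marrow macrophages (BMDM). In the M0 group the macrophages had received control medium (DMEM) for 24 h, in the M1 group 20 ng/ml of a cytokine spelled INF-γ in the labels and read as interferon gamma, and in the M2 group 20 ng/ml IL-4. In the group called TAM, for tumour-associated macrophages, the macrophages had received 75% B16F10 conditioned medium for 24 h. Each group had 3 libraries, 12 in all, and every group including M0 received macrophage medium, so no comparison is with cells in plain medium. Nothing in the labels tells if carried-over cytokine or tumour medium was washed away before collection. Nor do they name separate cultures behind the 3 libraries of a group, so the p-values here measure only library spread, which may be technical.

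The 5 genes belong to signalling systems that melanocytes use to survive, divide, migrate and make pigment. MC1R is a G protein-coupled receptor that binds melanocortin peptides made from POMC, is antagonised by agouti signalling protein, and raises cAMP, which induces MITF and through it the pigment enzymes. KIT is a receptor tyrosine kinase that binds KIT ligand and is needed for melanoblast survival and migration, and EDNRB is the endothelin receptor that acts beside it in the neural crest. MET is the receptor tyrosine kinase for hepatocyte growth factor (HGF) and is known for driving growth and motility in melanoma. MITF binds E-box sequences in the promoters of pigment genes and has been described as a regulator of Met and Mc1r.

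Library totals ran from 15916756 to 20863973 counts. Checked against the labelled cell type, all 9 melanocyte markers were abundant enough to be tested. Their summed level per library was 14000 to 21100 CPM, a gene's counts scaled to a common library total. Of 15 macrophage markers 3 were tested, 7 including Ptprc and Adgre1 had no count in any library, and the sum was 3.09 to 5.89 CPM. Mast cell and keratinocyte markers, from other cells that carry or supply these receptors' signals, had no count for 5 of 6 and 6 of 6 genes. One library, M0 replicate 1, stood apart. Across genes its expression profile had r = 0.951 and 0.952 with M0 replicates 2 and 3, which had r = 0.996 with each other. The share of ribosomal protein genes was 6.92% in it and 3.11% to 3.63% in the rest. Mean exon length, weighted by counts, was 4545 bp in it and 5817 to 6091 bp in the rest. The 5 genes are given with and without it, and the part of these differences in the results was not tested. Of the 36 further genes named from lists, 21 were called in M1 versus M0 and 35 in TAM versus M0. Over all tested genes 25.7% and 50.5% were called. The named genes were chosen because they were called against M0, so their counts follow largely from that choice. All of those calls held in the same direction without M0 replicate 1, when 47.1% and 66.7% of all tested genes were called. Another 6 passed in M1 (Prkar2b, Pdgfrb, Arrb1, Crkl, Timp3 and Pax3) and 1 in TAM (Socs1) without it.

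The receptors lay far apart in level. Divided by the length of their exons, the M0 means were 180.5 ± 82.4 CPM per kb for Met (SD, n = 3), 49.5 ± 9.01 for Mc1r, 0.208 ± 0.153 for Kitl, 0.129 ± 0.0463 for Kit and 0.00436 ± 0.00754 for Ednrb. In M0 the libraries overlapped between Kitl and Kit and not between the other neighbours in that order. M1 means were 134.2 ± 3.90 for Met, 48.3 ± 1.42 for Mc1r, 0.948 ± 0.0576 for Kitl and 0.0290 ± 0.0140 for Kit, and M2 means were 219 ± 7.11, 43.7 ± 1.11, 0.244 ± 0.0688 and 0.196 ± 0.00667. In TAM the order was again the same, with Met at 59.5 ± 0.33 CPM per kb, Mc1r at 9.73 ± 0.949, Kitl at 0.452 ± 0.0507 and Kit at 0.0267 ± 0.00929. Met and Mc1r transcripts were abundant, Kit and Kitl transcripts scarce, and Ednrb lay at the limit of detection. Met, Mc1r, Kit and Kitl passed the filter on low counts and were tested, and Ednrb was not.

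Mc1r was lower in TAM than in the other 3 media, which lay close to each other. The gene lies on chromosome 8 (mm10, 123407107 to 123410744, plus strand). It stood at 218, 161.7 and 160.7 CPM in M0 replicates 1 to 3 (CPM after TMM scaling of library totals), 175.3, 170.5 and 180.8 in M1, 160.4, 154.5 and 162.2 in M2, and 31.5, 37.9 and 36.8 in TAM. The TAM libraries lay below all 9 others without overlap, while M0 overlapped with M1 and M2, and M1 lay just above M2. Against M0 the change in TAM was −2.35 ± 0.13 on the log2 scale (standard error, SE), a level 5.09-fold lower (edgeR quasi-likelihood test, adjusted p = 2.24e-07). Against M1 and M2 it was −2.31 ± 0.13 (adjusted p = 1.69e-07) and −2.17 ± 0.13 (adjusted p = 4.02e-07), so the fall was larger than the spread between libraries against each of the other media. In a bulk library fewer cells with a transcript and less of it per cell cannot be told apart.

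In M1 versus M0 Mc1r changed by −0.04 ± 0.13 (adjusted p = 0.849) and in M2 versus M0 by −0.18 ± 0.13 (adjusted p = 0.546). Neither passed the test. M0 replicate 1 held 1.35 times the Mc1r of the mean of the other M0 libraries. Without it the M1 change was 0.16 ± 0.05 (adjusted p = 0.00445), a call in the higher direction, with the M1 libraries all above M0 replicates 2 and 3. The M2 change without it was −0.01 (adjusted p = 0.988). M1 versus M2 gave 0.14 ± 0.13 (adjusted p = 0.55), or 0.17 ± 0.04 without that replicate (adjusted p = 0.00056).

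**Figure D1:**
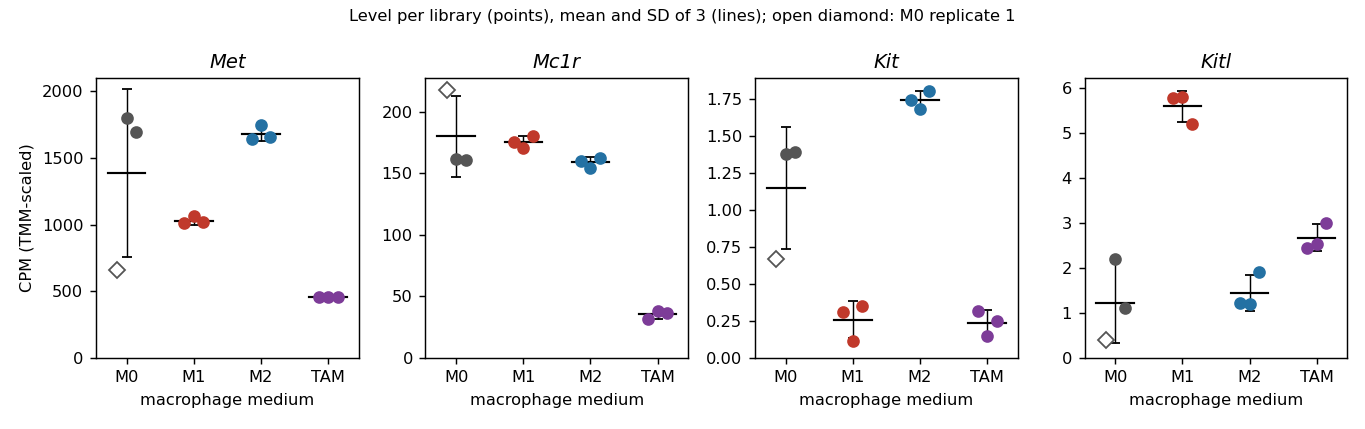
CPM after TMM scaling (vertical axes, linear from 0, a scale of its own for each gene) of Met, Mc1r, Kit and Kitl in the M0, M1, M2 and TAM media. Points are libraries, horizontal lines the mean and bars the SD of 3 libraries, and the open diamond is M0 replicate 1. The TAM libraries were lowest for Met and Mc1r, M1 and TAM were both low for Kit, and M1 was highest for Kitl.

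The stretch just before the Mc1r start site holds E-box letters, and it is shown because Mc1r and Mitf both fell in TAM. It is the 250 bases before the start site in RefSeq (GRCm38.p6, chr8:123406832-123407081, plus strand), with matches to CATGTG on either strand in capitals. On the printed strand the matches read CACATG, starting 62 bases before the start site, and CATGTG, starting 51 bases before it.
Mc1r upstream: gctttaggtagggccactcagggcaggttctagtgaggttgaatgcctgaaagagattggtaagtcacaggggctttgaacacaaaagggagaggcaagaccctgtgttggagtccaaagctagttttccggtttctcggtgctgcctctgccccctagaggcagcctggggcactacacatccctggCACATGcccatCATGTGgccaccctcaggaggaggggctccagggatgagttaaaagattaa
A match to CATGTG occurred in 12.3% of 32851 RefSeq promoter windows of the same 250 bases. The Met window held no CATGTG but 1 match to CACGTG, a palindromic E-box that 6.02% of windows hold, starting 126 bases before the RefSeq start site. The 30 bases around it (chr6:17463819-17463848, plus strand) lie in what GENCODE counts as a first exon of Met, with the match in capitals.
Met stretch: gggacgaacagaCACGTGctggggcgggta
The windows of Kit, Kitl and Ednrb held neither E-box. None of the 5 genes' windows held TTCNNNGAA, the sequence bound by activated STAT dimers (7.02% of windows, any base at N), or TGACGTCA, the full cAMP response element (1.55% of windows). These are matches of letters in the reference genome, and the B16F10 genome was not read here. Mc1r and Mitf did not move together everywhere. In M0 replicate 1 Mc1r stood at 1.35 and Mitf at 0.389 times the mean of the other M0 libraries. That library had a shorter mean exon length than the rest, and Mc1r has 3638 bp of exons against 6196 bp for Mitf. The part of exon length in this difference was not tested. Over the 12 libraries the r of Mc1r and Mitf was 0.844, or 0.931 without that replicate, and binding by MITF was not tested.

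Among the partners of MC1R the precursor of its agonists moved and its antagonist was not found. Pomc stood at 3.29, 1.44 and 1.2 CPM in M0, 1.56, 1.22 and 0.843 in M1, 1.03, 1.04 and 1.86 in M2 and 5.59, 5.78 and 5.27 in TAM. It rose in TAM versus M0 by 1.49 ± 0.36 on the log2 scale (adjusted p = 0.00527), or 2.08 without M0 replicate 1 (adjusted p = 1.43e-09), where Mc1r fell. The convertase genes of the same list, Pcsk1 and Pcsk2, had 0 and 2 counts in the 12 libraries, and agonist peptide was not measured. The antagonist gene Asip, listed under the symbol a, had 0 counts in all 12 libraries, which allows up to 0.0131 CPM over them. The other melanocortin receptors were at or near 0, with no count for Mc2r, Mc3r and Mc4r and 5 counts in all for Mc5r. Of the 5 tested genes in a list of 11 MC1R ligands and accessory proteins, Pomc was the only call in TAM versus M0. None was called in M1 versus M0. Over all tested genes 50.5% were called in TAM and 25.7% in M1. With M0 replicate 1 left out, 1 of 6 was called lower in each, beside 33.7% of all genes lower in TAM and 22.9% in M1.

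Calls in the cAMP arm below MC1R went in both directions, and with all 12 libraries their shares were near or below those of all tested genes. Of 25 tested genes of this arm 4 rose and 5 fell in TAM versus M0, where 23.3% of all tested genes rose and 27.2% fell, and the list's median log2 change was 0.14 against −0.02 over all genes. Leaving out M0 replicate 1 gave 7 and 9 of 26, with a median of −0.02. In M1 versus M0 3 rose and 3 fell, beside 12.2% and 13.5% of all tested genes, or 4 and 9 of 26 without that replicate, when 24.3% of all tested genes rose and 22.9% fell in M1 and 33% and 33.7% in TAM. Crem, a cAMP-responsive transcription factor gene, went from 9.47 ± 0.579 CPM in M0 (SD, n = 3) to 54.0 ± 0.933 in M1 and 11.8 ± 0.507 in TAM, by 2.51 ± 0.11 (adjusted p = 1.84e-08) and 0.32 ± 0.10 (adjusted p = 0.0261). Prkar2b, a regulatory subunit of protein kinase A, fell in TAM by 2.07 ± 0.19 on the log2 scale and Prkaca, a catalytic subunit, by 1.01 ± 0.13. Sik1, a kinase that restrains CREB coactivators, rose in TAM by 1.28 ± 0.14 and stood at 8.32 ± 0.574 CPM in M1 against 8.86 ± 1.77 in M0.

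The genes beside Mc1r on chromosome 8 were examined after its own values had been seen, as the nearest 2 tested protein-coding genes on each side. Tubb3, a neuronal beta-tubulin gene, starts 679 bp beyond the end of Mc1r on the same strand. It stood at 262.4 ± 83.2 CPM in M0, 856.5 ± 22.4 in M1, 237.2 ± 13.5 in M2 and 35.7 ± 2.23 in TAM. It rose in M1 by 1.71 ± 0.18 (adjusted p = 4.93e-05), where Mc1r did not pass the test, and it fell in TAM by 2.88 ± 0.19 on the log2 scale (adjusted p = 6.96e-07). Def8, a gene of lysosome positioning that starts 12782 bp beyond Mc1r, went from 73.7 ± 9.99 to 27.2 ± 1.49 CPM in TAM, a change of −1.44 ± 0.10 (adjusted p = 1.07e-06), and stood at 72.7 ± 1.46 in M1. On the other side Tcf25, 3271 bp away, changed by −0.65 ± 0.11 in TAM (adjusted p = 0.000478). Spire2, 37591 bp away, changed by −0.33 ± 0.25 (adjusted p = 0.294). All 4 values were below 0, and 3 of the 4 neighbours were called lower in TAM versus M0, as were 27.2% of all tested genes. Without M0 replicate 1 the same 3 were called lower in TAM, and Spire2 stood at 0.11 there (adjusted p = 0.464). In M1 versus M0 without it Spire2 rose by 0.76 (adjusted p = 1.86e-06) and Tubb3 by 2.03 (adjusted p = 7.53e-28), and Def8 stood at 0.13 (adjusted p = 0.0501).

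**Figure D2:**
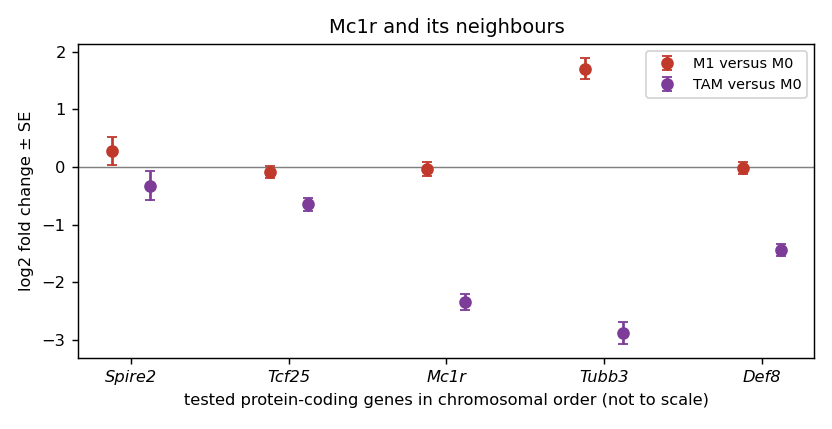
Log2 fold change with its SE (vertical axis) of Mc1r and its nearest tested protein-coding genes in chromosomal order (horizontal axis, not to scale), in M1 versus M0 and TAM versus M0, from the fit with all 12 libraries. All 5 genes lay below 0 in TAM, Spire2 at −0.33 without passing the test and, without M0 replicate 1, at 0.11, and in M1 Tubb3 alone lay above 1.

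Def8 was also the gene whose pattern was closest to that of Mc1r. Over the 12 libraries the log2 CPM of Def8 and Mc1r correlated at r = 0.999, the highest of 9873 genes with a mean of at least 5 CPM, and r was again 0.999 and the highest without M0 replicate 1. The next were Uaca (r = 0.997), Sipa1 (0.996), Scap (0.995) and Sgsm2 (0.995). Those 4 ranked 8, 16, 9 and 19 without M0 replicate 1, so 1 of the 5 was still within the closest 5. All genes share these libraries, which fall into 4 groups, and the r values are descriptions.

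Met fell in TAM, and its level in M1 lay between M2 and TAM. The gene lies on chromosome 6 (mm10, 17463800 to 17573980, plus strand). It stood at 658, 1804 and 1697 CPM in M0 replicates 1 to 3, 1010, 1065 and 1017 in M1, 1646, 1746 and 1658 in M2, and 454, 458 and 459 in TAM. The TAM libraries were below all others, the M1 libraries were below all of M2, and M0 replicate 1 lay below the whole M1 group while the other M0 libraries lay within or above the M2 range. The change in TAM was −1.60 ± 0.28 versus M0 (adjusted p = 8e-04), −1.88 ± 0.29 versus M2 (adjusted p = 0.000314) and −1.17 ± 0.28 versus M1 (adjusted p = 0.00587). Relative to M0 that is a level 3.03-fold lower, or 3.84-fold lower without M0 replicate 1.

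The call for Met in M1 depended on 1 library. With all 12 libraries M1 versus M0 gave −0.43 ± 0.28 (adjusted p = 0.279), which missed the threshold. Without M0 replicate 1, which held 0.376 times the mean of the other M0 libraries, it was −0.73 ± 0.04 (adjusted p = 8.09e-23). M1 versus M2, which uses no M0 library for its means, gave −0.71 ± 0.28 with the spread of all 12 libraries (adjusted p = 0.118) and −0.68 in a fit of only the 6 M1 and M2 libraries (adjusted p = 8.9e-18), or −0.68 ± 0.03 without M0 replicate 1. M2 and M0 did not differ beyond the spread, at 0.28 ± 0.28 (adjusted p = 0.578) or −0.05 (adjusted p = 0.844) without that replicate.

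**Figure D3:**
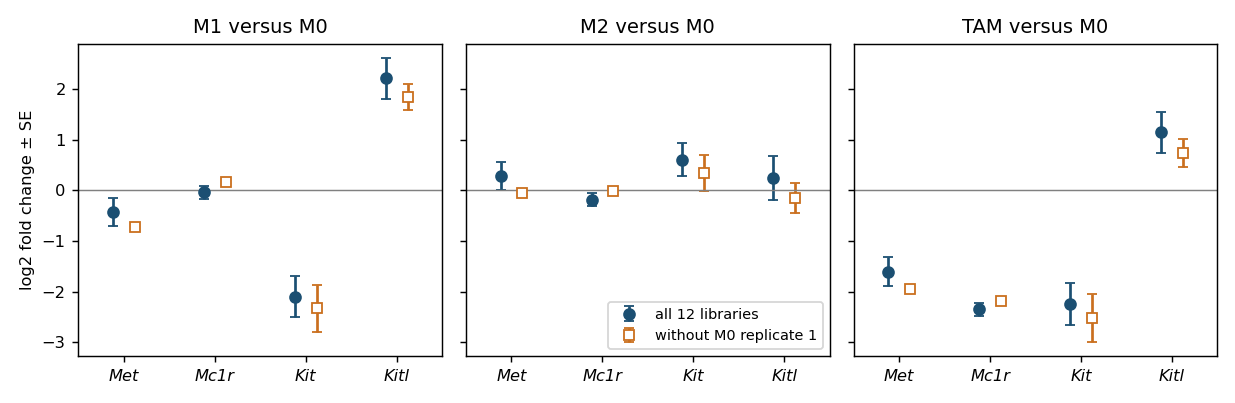
Log2 fold change with its SE (vertical axis) of Met, Mc1r, Kit and Kitl in M1, M2 and TAM versus M0, with all 12 libraries (filled circles) and without M0 replicate 1 (open squares). The 3 receptors lay below −1 and Kitl above 0 in TAM under both fits. Mc1r in M1 changed side between the fits, from −0.04 to 0.16. In M2 Kitl changed side from 0.25 to −0.14 and Met from 0.28 to −0.05.

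Met moved with Mitf across libraries, M0 replicate 1 included. Both have long exons, 7679 bp for Met and 6196 bp for Mitf. M0 replicate 1, with its shorter mean exon length, held less of both than the other M0 libraries. The part of exon length in this was not tested. Mitf, the melanocyte master regulator, stood at 223, 580 and 568 CPM in M0, 308, 415 and 332 in M1, 522, 582 and 539 in M2, and 108, 113 and 110 in TAM. The log2 CPM of Met and Mitf correlated at r = 0.988 over 12 libraries and 0.992 without M0 replicate 1, against 0.772 and 0.897 for Met and Mc1r. The 5 genes closest to Met were Fignl1, Bub1, Paxip1, Ticrr and Ccna2, at r between 0.993 and 0.995 among 9873 genes. All 5 were closer to Met than Mitf was, so the match with Mitf was not particular to it. None of those 5 was within the closest 5 without M0 replicate 1. There Bub1 ranked 74 at r = 0.994, still above Mitf. The points again share their 4 groups.

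**Figure D4:**
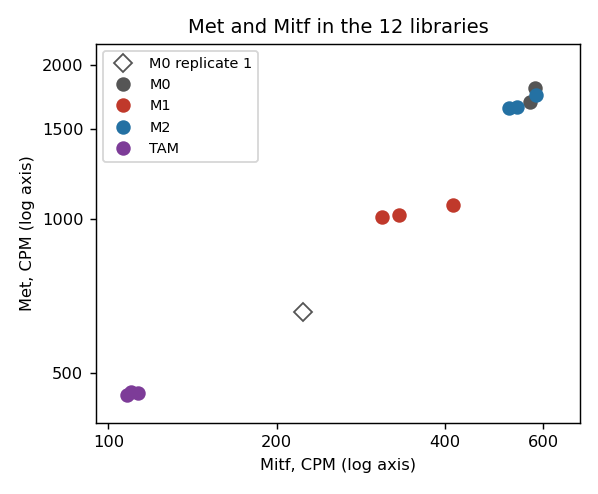
Met (vertical axis) against Mitf (horizontal axis), both in CPM on log axes, in the 12 libraries, coloured by macrophage medium, with M0 replicate 1 as an open diamond. The TAM libraries lay at the lower left, M1 in between and M2 with the other M0 libraries at the upper right, and M0 replicate 1, at 223 CPM of Mitf and 658 of Met, lay between TAM and M1.

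The ligand gene of MET was near 0. Hgf had 4 counts in the 12 libraries, 2 of them in M1 replicate 3 and 1 each in TAM replicates 1 and 2. Of 28 genes for HGF activation and MET partners 20 were tested, and in TAM versus M0 5 rose and 2 fell, with a median of −0.05, or 6 and 9 with a median of −0.20 without M0 replicate 1. Over all tested genes 23.3% rose and 27.2% fell in TAM, or 33% and 33.7% without that replicate. In M1 versus M0 3 of the 20 rose and 1 fell, beside 12.2% and 13.5% of all genes, or 7 and 2, beside 24.3% and 22.9%. Plat, the tissue plasminogen activator gene, was at 6.30 ± 0.691 CPM in M0, 15.2 ± 2.30 in M1 and 1.89 ± 0.583 in TAM, a rise of 1.27 ± 0.21 in M1 (adjusted p = 0.00114) and a fall in TAM with a change of −1.74 ± 0.23 (adjusted p = 0.000104). Ptpn2, a phosphatase gene, rose in M1 and TAM by 0.36 ± 0.08 and 0.62 ± 0.08. The adaptor gene Crkl and Ranbp9, whose product binds MET, rose in TAM by 0.88 ± 0.24 and 0.64 ± 0.16, or by 0.57 and 0.43 without M0 replicate 1.

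Kit was scarce, and lower in both M1 and TAM. The gene lies on chromosome 5 (mm10, 75574916 to 75656722, plus strand). Its counts were 12, 22 and 29 in M0, 6, 2 and 7 in M1, 34, 34 and 33 in M2, and 6, 3 and 5 in TAM. The mean level was 1.15 ± 0.413 CPM in M0, 0.259 ± 0.125 in M1, 1.75 ± 0.0594 in M2 and 0.238 ± 0.0828 in TAM. No M1 or TAM library reached the lowest M0 library, and M1 and TAM overlapped. The change was −2.09 ± 0.41 in M1 versus M0 (adjusted p = 0.00376) and −2.24 ± 0.41 in TAM versus M0 (adjusted p = 0.00104). Versus M2 it was −2.70 ± 0.39 in M1 (adjusted p = 0.000629) and −2.85 ± 0.40 in TAM (adjusted p = 0.000167). In a fit of only the 6 M1 and M0 libraries the M1 change was −2.05 and missed the threshold (adjusted p = 0.0563).

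M1 and TAM did not differ detectably in Kit at this depth, with −0.15 ± 0.51 for TAM versus M1 (adjusted p = 0.838). The M2 libraries held the highest Kit values without overlapping M0, but the change of 0.60 ± 0.32 did not pass the test (adjusted p = 0.535), and it was 0.34 without M0 replicate 1. Other receptor kinases of the KIT class, except Pdgfrb, were also low or missing. Flt3 had no count, Csf1r had 8 counts in all, and Pdgfra changed by −0.89 ± 0.44 in M1 and −1.05 ± 0.44 in TAM without passing the test. It passed without M0 replicate 1, at −1.16 (adjusted p = 0.0076) and −1.36 (adjusted p = 0.00115). Pdgfrb stood at 18.8 ± 2.83 CPM in M0 and rose in TAM by 0.47 ± 0.14 (adjusted p = 0.0168). The genes closest to Kit in pattern were Cntrob, Slc4a8, Frzb, Slc6a17 and Ewsr1, at r between 0.961 and 0.971, of which Slc4a8 and Frzb were within the closest 5 without M0 replicate 1.

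Kitl, the ligand gene, moved the other way from its receptor. It lies on chromosome 10 (mm10, 100015630 to 100100416, plus strand). Its counts were 7, 35 and 23 in M0, 111, 100 and 105 in M1, 24, 24 and 35 in M2, and 47, 51 and 60 in TAM. These are 0.390, 2.19 and 1.10 CPM in M0, 5.78, 5.81 and 5.21 in M1, 1.23, 1.19 and 1.91 in M2, and 2.46, 2.54 and 3.01 in TAM. M1 was above every other library, TAM was above every M0 and M2 library, and M0 and M2 overlapped.

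The rise in M1 was 2.21 ± 0.40 versus M0 (adjusted p = 0.00239) and 1.95 ± 0.39 versus M2 (adjusted p = 0.00495), a level 4.62-fold that of M0, or 3.59-fold without M0 replicate 1. In TAM versus M0 Kitl rose by 1.14 ± 0.41, close to the threshold (adjusted p = 0.0384). That call was lost when M0 replicate 3, M2 replicate 1 or 2, or any 1 of the M1 or TAM libraries was left out (adjusted p up to 0.109), and in a fit of only the 6 libraries compared (adjusted p = 0.15). Without M0 replicate 1 the change was 0.74 ± 0.27 (adjusted p = 0.0151). TAM versus M1 gave −1.07 ± 0.37 (adjusted p = 0.0357), a call that was lost when any 1 of the M1 or TAM libraries was left out (adjusted p up to 0.0967). TAM versus M2 gave 0.89 ± 0.40 and missed the threshold (adjusted p = 0.0963), while it passed without M0 replicate 1 (adjusted p = 0.00114). M2 versus M0 was 0.25 ± 0.43 (adjusted p = 0.732), or −0.14 without M0 replicate 1.

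Fibroblasts also make KIT ligand, and the 7 fibroblast markers, Pdgfra and Pdgfrb among them, of which 4 were tested and 1 had no count, summed to 20.9 to 26.9 CPM in M0, 16.4 to 20.0 in M1, 26.8 to 29.7 in M2 and 35.9 to 38.0 in TAM. Most of the sum in M0 was Pdgfrb, named above among receptor kinases of the KIT class, so the sum largely follows that gene. Kitl was highest in M1, and the part of fibroblasts in the result was not tested. The genes closest to Kitl in pattern were Cyld, Azi2, Palld, Camk2d and Il13ra1, at r between 0.962 and 0.973 among 9874 genes, and none of them was within the closest 5 without M0 replicate 1. Across the 12 libraries Kitl and Kit correlated at r = −0.64, or −0.80 without M0 replicate 1.

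Among the adaptors and regulators that act below KIT the calls were split. Of 33 tested genes 7 rose and 5 fell in M1 versus M0, and 6 rose and 10 fell in TAM versus M0, with medians of 0.04 and 0.10 against −0.02 over all genes in both. The shares over all genes were 12.2% and 13.5% in M1 and 23.3% and 27.2% in TAM. The list's share of rises in M1 was larger than that of all genes, and its other shares were closer. With M0 replicate 1 left out the list's calls were 12 and 11 in M1 and 11 and 12 in TAM, of 34. Beside them stood 24.3% and 22.9% of all genes in M1 and 33% and 33.7% in TAM. Socs1, an interferon-induced inhibitor of cytokine signalling that also binds KIT, went from 0.980 ± 0.710 to 65.7 ± 7.10 CPM in M1, a rise of 6.05 ± 0.32 (adjusted p = 1.28e-07), and stood at 1.32 ± 0.0227 in TAM, where it passed only without M0 replicate 1 (adjusted p = 0.00231). Grb14, an adaptor of receptor kinases, went from 0.798 ± 0.122 CPM to 13.6 ± 0.427 in TAM, a rise of 4.07 ± 0.15 (adjusted p = 2.01e-08), and rose in M1 by 0.90 ± 0.17. Fyn, a Src-family kinase gene, rose in TAM by 1.48 ± 0.08 and Ptpn6, a phosphatase that dampens KIT signalling, fell by 2.47 ± 0.20 on the log2 scale.

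Genes for the release of KIT ligand and MET from the cell surface were called in both directions. Of 13 tested shedding proteases and their regulators 4 rose and 3 fell in TAM versus M0, where 23.3% of all genes rose and 27.2% fell, and 1 rose and 4 fell in M1 versus M0, where 12.2% and 13.5% did. Omitting M0 replicate 1 gave 4 and 7 in TAM, beside 33% and 33.7% of all genes, and 6 and 6 in M1, beside 24.3% and 22.9%. Rhbdf2, a cofactor of the sheddase ADAM17, rose in TAM by 1.43 ± 0.10 (adjusted p = 1.07e-06) and in M1 by 0.61 ± 0.10 (adjusted p = 0.00128). The inhibitor gene Timp3 went from 24.9 ± 12.6 CPM in M0 to 176.7 ± 6.74 in TAM, a rise of 2.83 ± 0.34 (adjusted p = 4.89e-05), while Timp2 changed by −0.67 ± 0.11 in M1 and −0.70 ± 0.11 in TAM. Mmp14, a membrane-bound matrix protease gene, changed by −0.43 ± 0.08 and −0.45 ± 0.08.

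Ednrb lay at the limit of detection in every medium. The gene lies on chromosome 14 (mm10, 103814625 to 103844402, minus strand). It had 1 count in each of M0 replicate 1, M1 replicate 2 and TAM replicate 1 and none in the other 9 libraries. The absence of any count in M2 allows up to 0.0527 CPM over that group, so no fold change can be given and a difference between media was not detectable at this depth. Ednra, the other endothelin receptor gene, had 3 counts in all, and the endothelin genes Edn1, Edn2 and Edn3 had 0 counts in every library, which allows up to 0.0131 CPM over the 12.

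The enzymes and effectors around the endothelin receptor were present in part. Ece1, which cuts endothelin precursors into active peptides, stood at 4.77 ± 0.804 CPM in M0 and fell in TAM by 0.61 ± 0.19 on the log2 scale (adjusted p = 0.02). Mme, a peptidase that degrades endothelin, changed by −2.06 ± 0.61 in TAM (adjusted p = 0.0157) at under 1 CPM and with overlap between the groups. Of 23 tested genes of the Gq arm that endothelin receptors use, 11 fell and 4 rose in TAM versus M0 with a median of −0.41, or 12 and 5 with −0.29 without M0 replicate 1. Of all tested genes 27.2% fell and 23.3% rose, with a median of −0.02, or 33.7% and 33% without that replicate. In M1 versus M0 6 rose and 6 fell, beside 12.2% and 13.5% of all genes, or 7 and 10, beside 24.3% and 22.9%. Gna11, a G protein subunit, changed by −1.11 ± 0.10 in TAM and −0.54 ± 0.10 in M1, and the beta-arrestin gene Arrb1 by −1.73 ± 0.14 in TAM. Rgs16, which shortens G protein signals, went from 9.60 ± 2.25 to 133.3 ± 12.5 CPM in M1 and 89.3 ± 4.56 in TAM, and Prkcz, an atypical protein kinase C gene, from 7.67 ± 0.853 to 2.53 ± 0.0905 and 1.74 ± 0.377.

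Read over the members, 2 of the 4 tested genes were called in M1 versus M0, Kit lower and Kitl higher, where 25.7% of all 14591 tested genes were called. Without M0 replicate 1 all 4 were called, beside 47.1% of all genes, with Mc1r added as higher and Met as lower. In TAM versus M0 all 4 were called, 3 lower and 1 higher, beside 50.5% of all genes, or 66.7% without M0 replicate 1, when the same directions were called. No gene passed edgeR's test in M2 versus M0, so 0 members were called beside 0% of all genes. In that comparison 0 members and 980 of all genes had an unadjusted p under 0.05, and 7 genes were called by DESeq2 and 0 by limma-voom. In TAM versus M1 3 members were lower, Mc1r, Met and Kitl, and 0 higher, where 43% of all genes were called, 19.8% higher and 23.3% lower. Omitting M0 replicate 1 left the members' count at 3 lower and 0 higher, beside 70.1% of all genes, 32.4% higher and 37.7% lower. In TAM versus M2 3 were lower, Mc1r, Met and Kit, and 0 higher, where 43.2% of all genes were called, 20.7% higher and 22.6% lower, and Kitl was added as higher without that replicate, beside 69.5% of all genes. M1 versus M2 called Kit lower and Kitl higher, beside 17.2% of all genes, 9.72% higher and 7.5% lower, and all 4 members without that replicate, beside 48.3%. The comparisons with M0 share the M0 libraries and are not independent of each other.

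Among other receptors known from melanocytes most calls in TAM were higher. Of 17 tested in a list of 29, 9 rose and 3 fell in TAM versus M0 with a median of 0.65, and 6 rose and 2 fell in M1 versus M0 with a median of 0.33. Leaving out M0 replicate 1 gave 10 and 5 of 18 in TAM, with a median of 0.46, and 7 and 3 in M1. Over all genes 23.3% rose and 27.2% fell in TAM and 12.2% and 13.5% in M1, with medians of −0.02, or 33% and 33.7% in TAM and 24.3% and 22.9% in M1 without that replicate. Vdr, the vitamin D receptor gene, went from 1.99 ± 0.145 CPM to 8.13 ± 0.80 in M1 and 8.53 ± 0.354 in TAM. Ddr1, a collagen receptor kinase gene, rose by 0.64 ± 0.08 and 0.71 ± 0.08. The receptor kinase gene Axl reached 85.3 ± 4.65 CPM in M1 and 106.4 ± 2.04 in TAM from 21.6 ± 3.21, and the neurotrophin receptor gene Ngfr 26.2 ± 1.55 and 33.4 ± 1.66 from 1.86 ± 0.677.

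Among 14 tested genes that regulate the members 5 rose and 5 fell in TAM versus M0, where 23.3% and 27.2% of all genes did, and 0 rose and 1 fell in M1 versus M0, where 12.2% and 13.5% did. Leaving out M0 replicate 1, 9 rose and 5 fell in TAM, beside 33% and 33.7% of all genes, and 4 and 4 in M1, beside 24.3% and 22.9%. Mitf changed by −2.05 ± 0.29 in TAM (adjusted p = 0.000177). In M1 it changed by −0.38 ± 0.28 (adjusted p = 0.342), or −0.67 without M0 replicate 1 (adjusted p = 0.00163). Sox10, which activates Mitf, changed by −0.92 ± 0.12, while Pax3, another activator of Mitf, rose by 1.19 ± 0.17 and Ets2 by 1.75 ± 0.13. Tfeb, a lysosomal relative of MITF, changed by −1.94 ± 0.20 in TAM and −0.74 ± 0.19 in M1.

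Most pigment and other melanocyte output genes fell in both M1 and TAM. Of 16 tested 13 fell and 0 rose in M1 versus M0, and 11 fell and 1 rose in TAM versus M0, with medians of −1.04 and −1.0. Of all tested genes 13.5% fell in M1 and 27.2% in TAM, with medians of −0.02. Leaving out M0 replicate 1, 15 fell in M1 and 13 fell and 2 rose in TAM, beside 22.9% lower in M1 and 33.7% lower and 33% higher in TAM. Slc45a2, a melanosomal transporter gene, changed by −1.41 ± 0.08 in M1 and −1.48 ± 0.08 in TAM. Trpm1 changed by −2.16 ± 0.13 and −1.23 ± 0.12, Mlph, a melanosome transport gene, by −1.28 ± 0.08 and −0.59 ± 0.08, and Cdk2, a kinase gene regulated by MITF in melanocytes, by −1.08 ± 0.10 and −2.14 ± 0.10.

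**Figure D5:**
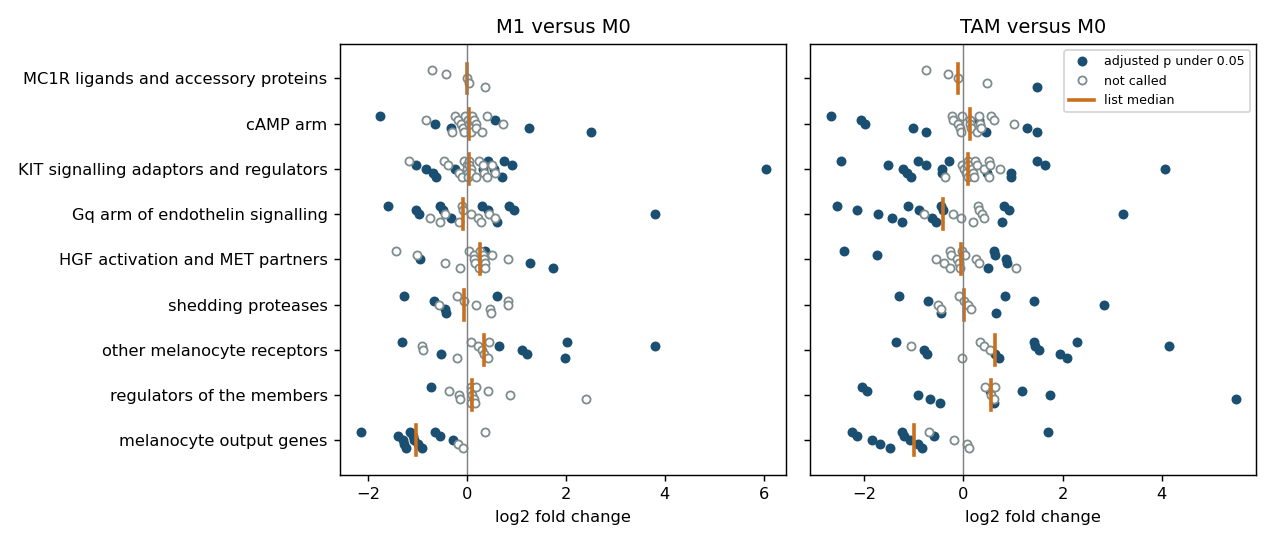
Log2 fold change (horizontal axes) of each tested gene in 9 lists around the members (rows), in M1 versus M0 and TAM versus M0. Filled points passed the edgeR test, open points did not, points are spread vertically for legibility, and the bar is the list's median. The melanocyte output genes lay mostly below 0 in both media, with medians of −1.04 and −1.0, and other melanocyte receptors mostly above 0 in TAM.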

How the data were processed

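RNA was extracted with Trizol and mRNA libraries were made with Illumina protocols, per the labels' protocols. The authors deposited 1 table of raw counts per Ensembl gene for 12 libraries. Groups follow the labels, and 1 TAM title with a misspelt cell line was settled by its treatment label. HISAT2 2.0 and mm10 appear, per the submitters' processing notes, with no stated role. What counted the reads, on which annotation and strand, is not given in the sources used here. A GENCODE M21 transcript of unknown coding status on the opposite strand, with 0 counts, shares 653 exon bases with Mc1r, so reads there could have been dropped. Symbols were found for 55141 of 55487 identifiers. Coordinates are 1-based, from GENCODE M21 (GRCm38).

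The tests used edgeR 4.0.16 under R 4.3.3: filterByExpr on the groups, TMM factors, and 1 robust quasi-likelihood fit of all 12 libraries with a mean per group. P-values were adjusted by Benjamini-Hochberg over 14591 genes, or 14968 without M0 replicate 1, and a gene was called at an adjusted p under 0.05. The SE is the absolute log2 change divided by the square root of F. CPM use TMM-scaled library totals, except for marker sums, which use plain totals. Where a gene had 0 counts, the limit given is 3 counts of the total, which covers counting error only. The fit was tested on simulated counts. Alternatives were RLE and upper-quartile factors, no filter, DESeq2 1.42.0, limma-voom (limma 3.58.1), a replicate block, only the 6 libraries compared, and leaving out each library.

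The members and lists were chosen with earlier results of these data known. Named genes were the members, their ligands, up to 4 called genes per list with the smallest adjusted p in a comparison with M0, and for each tested member the 5 genes with the highest Pearson correlation of log2(CPM + 0.5) at a mean of at least 5 CPM. Pdgfra, Flt3, Csf1r, Ednra, Mc2r to Mc5r, Pcsk1, Pcsk2, Mitf and the genomic neighbours were named after their values were seen. Asip was matched through a RefSeq synonym, and 1 of the 11 MC1R list entries, Defb103, was not matched. Promoter windows are RefSeq's (GRCm38.p6), with both strands searched.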

Additional observations from a re-analysis of the deposited data

How the results depend on the processing

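The falls of Mc1r, Kit and Met in TAM versus M0 and versus M2, and of Mc1r and Met in TAM versus M1, kept their direction and their call under every alternative run. Of 167 member values under the 7 alternatives other than leaving out 1 library, 159 kept direction and call. Mc1r in M1 versus M0 turned from −0.04 to 0.015 with no filter and 0.0073 with the 6 libraries compared, and ran from −0.11 to 0.16 when single libraries were left out. When single libraries were left out, M2 versus M0 ran from −0.14 to 0.91 for Kitl and −0.049 to 0.51 for Met, and TAM versus M1 from −0.48 to 0.10 for Kit. Members called in M1 versus M0 were 1 with only the 6 libraries compared and 2 to 4 when single libraries were left out, and in M1 versus M2 4 and 2 to 4. All genes called numbered 3744 in M1 versus M0 (1282 with the 6 libraries compared, 2287 without M1 replicate 1 to 7056 without M0 replicate 1), 7372 in TAM versus M0 (4619), 6279 in TAM versus M1 (10301, 5176 to 10489), 6309 in TAM versus M2 (10182, 5205 to 10407) and 2512 in M1 versus M2 (6952, 1686 to 7233). In M2 versus M0 they were 0, 7 by DESeq2, and 0 to 51 when single libraries were left out, 51 without M0 replicate 1. Leaving out M0 replicate 1 lowered edgeR's common dispersion from 0.0324 to 0.00166. Replicate numbers gave no sign of pairing the samples. The deviations of same-numbered libraries correlated at over 0.1 in 2 of 18 pairs (−0.17 to 0.21), and 6 of 12 libraries were closer on average to their own number. With 3 libraries per group and M0 replicate 1 apart, that check could not exclude pairing. With the replicate block 3156 genes were called in M1 versus M0, 7071 in TAM versus M0, 5988 in TAM versus M1, 6040 in TAM versus M2, 2172 in M1 versus M2 and 0 in M2 versus M0, and no call of a member changed. Kit and Ednrb rest on at most 34 and 1 counts per library, which limits what can be said of them.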

Other observations

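The genes next to Met were examined after its values had been seen, as the nearest 2 tested protein-coding genes on each side. Cav1, the caveolin 1 gene that lies 122347 bp away, stood at 9.67 ± 2.35 CPM in M0 (SD, n = 3), 4.49 ± 0.32 in M1, 9.96 ± 0.96 in M2 and 2.33 ± 0.512 in TAM. It fell in M1 with a log2 change of −1.11 ± 0.20 (edgeR adjusted p = 0.00244) and in TAM with −2.05 ± 0.21 (adjusted p = 1.78e-05). Cav2, the caveolin 2 gene, changed by −1.22 ± 0.34 in TAM (adjusted p = 0.011) and −0.08 ± 0.33 in M1 (adjusted p = 0.88). Without M0 replicate 1 these were −1.61 (adjusted p = 7.34e-33) and −0.42 ± 0.05 (adjusted p = 7.97e-11), so Cav2 passed in M1 as well, and Cav1 was called lower in both. On the other side Capza2, which encodes an actin capping subunit, and St7 did not pass the test in TAM, at 0.23 ± 0.12 (adjusted p = 0.134) and 0.02 ± 0.13 (adjusted p = 0.892). Without that replicate they stood at 0.09 (adjusted p = 0.0672) and 0.19 (adjusted p = 0.0375).

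By the same rule Kitl had 4 neighbours, none closer than 343485 bp. Dusp6, a feedback phosphatase of the ERK pathway 748140 bp away, went from 34.0 ± 8.90 CPM in M0 to 110.8 ± 6.61 in M1 and 123.5 ± 4.57 in TAM, by 1.70 ± 0.17 (adjusted p = 2.59e-05) and 1.86 ± 0.17 (adjusted p = 6.27e-06). In TAM Cep290 rose by 1.46 ± 0.43 (adjusted p = 0.0147) and Poc1b changed by −0.69 ± 0.11 (adjusted p = 0.000419), and Tmtc3 passed in neither medium. Without M0 replicate 1 Dusp6 rose by 1.54 and 1.65, Cep290 rose by 0.44 in M1 and 1.01 in TAM, Poc1b was called lower in both media, and Tmtc3 rose in TAM by 0.32 (adjusted p = 1.07e-06). Around Ednrb, which had almost no counts, Slain1 changed by −1.60 ± 0.22 in TAM (adjusted p = 0.000158) and Scel by 3.11 ± 0.35 (adjusted p = 3.13e-05), from 0.409 ± 0.0842 to 3.54 ± 0.253 CPM, and both calls held without M0 replicate 1. Pou4f1 and Rnf219 did not pass in TAM, at 0.30 ± 0.14 and −0.15 ± 0.25. Rnf219 was called lower without that replicate. Beside Kit, Chic2 rose in TAM by 0.87 ± 0.09 (adjusted p = 1.88e-05) and Srd5a3 changed by −0.45 ± 0.12 (adjusted p = 0.0106), and both calls held. Pdgfra and Tmem165 did not pass in TAM, at −1.05 ± 0.44 and −0.14 ± 0.08, but were called lower without that replicate.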
